A study of Mus musculus with 9 samples.

Results

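The genes described here are 10 negative regulators of Wnt signalling: Dkk1, Dkk2, Dkk3, Kremen1, Kremen2, Sfrp1, Sfrp2, Frzb, Wif1 and Shisa3. They were chosen by name, with earlier results of these data known, and they are 10 of the 43539 gene identifiers used. RNA was sequenced from mouse embryos of mixed strain at embryonic stage E14.5, with 3 libraries in each of 3 groups: control vault, MCAGF8 vault and control base. The vault is the roof of the forming skull. MCAGF8 embryos (Msx2-Cre; CAGFgf8) carry an Fgf8b transgene that Cre switches on, and Msx2-Cre acts in the surface ectoderm, the cell layer that forms the epidermis and lies over the vault. The skin was peeled away before the vault was taken. The labels call the controls wildtype, and the study's methods describe them as embryos without Cre. By the crosses described there, every embryo inherits the Fgf8b allele, so the controls would carry it without the Cre that switches it on. The control base is the cranial base, a cartilaginous part of the skull, from control embryos. Each library pooled RNA from 3 tissue samples, so a group stands for 9 tissue samples, and the spread given below is the spread between pools. The study's methods say that base and vault tissue were both taken from control embryos, so the pools of these groups may share animals, and how the pools match was not stated.

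Wnt ligands are secreted proteins that bind Frizzled receptors and the co-receptors Lrp5 and Lrp6 and so stabilise β-catenin, which acts with TCF/LEF factors on target genes. In the developing skull, Wnt/β-catenin signalling is known to favour bone formation by the mesenchyme and to hold back cartilage formation. Dkk1 and Dkk2 bind Lrp5 and Lrp6, and the transmembrane Kremen proteins bind the same Dkks and help to remove the co-receptors from the cell surface. Sfrp1, Sfrp2 and Frzb carry a Frizzled-like domain, and Wif1 a domain of its own, with which they bind Wnt ligands outside the cell. Shisa3 belongs to a family that retains Frizzled and FGF receptors in the endoplasmic reticulum.

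Values are FPKM, fragments scaled by the length of the transcript and by the mapped reads of the library. No read counts were used, so the depth behind each value is unknown. The libraries listed 16006 to 17281 genes at 1 FPKM or more, and values correlated within groups at r = 0.904 to 0.947 for the control base, 0.959 to 0.980 for the MCAGF8 vault and 0.970 to 0.974 for the control vault. Control base replicate 2 stood apart: the summed level of 15 cartilage genes was 11695 FPKM there against 1312 and 1820 FPKM in replicates 1 and 3. Those 2 base libraries were below the control vault (2358 to 3399 FPKM), and their Col2a1, the main cartilage collagen, was 163 and 268 FPKM against 373 to 462 FPKM in the control vault. The cartilage sum was thus above the control vault in 1 base library of 3, against the label of a cartilaginous tissue in the other two. The base libraries also held 1886 to 11766 FPKM of 13 skeletal muscle genes, against 983 to 6196 FPKM in the control vault and 56.5 to 230 FPKM in the MCAGF8 vault. A sum of 15 neuron and brain genes was 274 to 705 FPKM in the base, 109 to 147 FPKM in the control vault and 78.9 to 116 FPKM in the MCAGF8 vault. One of these genes, Tubb3, had no row.

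**Figure D1:**
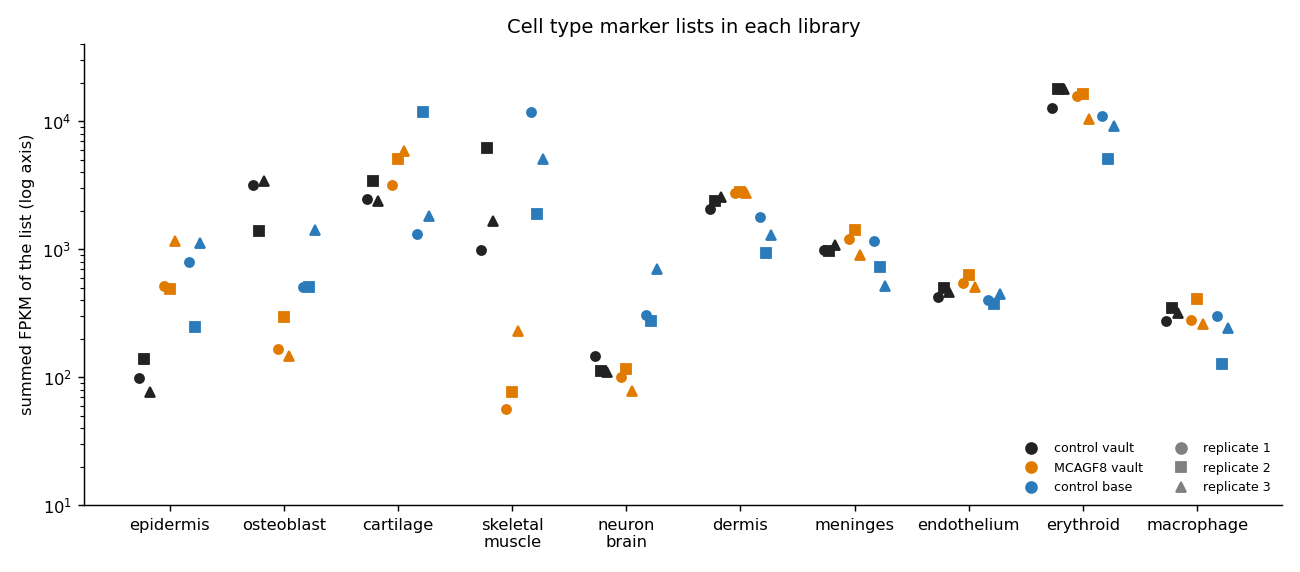
Summed FPKM of 10 lists of cell type markers (x axis) in each of the 9 libraries on a log axis (y axis); colours are the groups and symbols the replicates. Epidermal genes sat at 490 to 1156 FPKM in the MCAGF8 vault and 76.8 to 138 FPKM in the control vault, and osteoblast genes at 146 to 295 FPKM and 1387 to 3408 FPKM.

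Within the vaults the skeletal muscle sum given above separated the groups widely, and so did 2 further lists that touch the results below. The summed level of 20 epidermal genes was 98.1, 138 and 76.8 FPKM in control vault replicates 1 to 3 and 516, 490 and 1156 FPKM in the MCAGF8 vault, with 3 of the 20 called higher and 0 lower. Of the other genes on that list, 4 had lower means on the log2 scale in the MCAGF8 vault, Krt18, Krt8, Cldn6 and Epcam, with log2 differences of -1.46, -1.14, -0.68 and -0.0041 that did not pass the test. The summed level of 12 osteoblast genes was 3187, 1387 and 3408 FPKM in the control vault and 167, 295 and 146 FPKM in the MCAGF8 vault, with 7 of the 12 called lower. Krt5, a keratin of basal epidermis, was 5.27, 29.2 and 1.63 FPKM in the control vault and 149, 139 and 252 FPKM in the MCAGF8 vault. Ibsp, a protein of bone matrix, was 1487, 679 and 1527 FPKM in the control vault and 11.5, 50.7 and 12.5 FPKM in the MCAGF8 vault. In RNA from whole tissue, fewer cells of a type and less RNA per cell cannot be told apart.

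Promoter sequence was given for 7 of the 10 genes (Dkk1, Dkk2, Kremen2, Sfrp2, Frzb, Wif1 and Shisa3), in RefSeq on GRCm38.p6. The 250 bases before each start were searched on both strands for short runs of letters. The TCF/LEF run was CTTTG followed by any pair made of adenine and thymine. The run for RUNX factors, which drive bone formation among other roles, was TGTGGT. That for ETS factors, which act downstream of FGF signalling, was CCGGAAGT, and the TATA run was TATAAA. No matches in the 7 windows overlapped one another. Of 32851 promoters of the same length, 14.8% held the TCF/LEF letters, 14% the RUNX letters, 2.88% the ETS letters and 12.4% the TATA letters. Among the 7 genes, TCF/LEF and RUNX letters were found in Dkk1, and TATA letters in Dkk1, Dkk2 and Wif1. The Kremen2, Sfrp2, Frzb and Shisa3 windows held none of these letters, which says nothing of the factors. Of the Frzb window, only 21 bases lie before the first base of the gene in GENCODE M21. Sequences are printed for Dkk1, Kremen2 and Shisa3, which had the largest fold differences in mean FPKM between the vault groups. For Dkk1 the stretch between its 2 TCF/LEF matches is shown, at chr19:30549588-30549613 on the minus strand, with the matches in capitals. They lie 117 to 111 and 98 to 92 bases before the RefSeq start. GENCODE M21 begins Dkk1 further upstream and places this stretch in its first exon, in the untranslated part.

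Dkk1: CTTTGAAatcccatcccggCTTTGTT

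For Kremen2 (chr17:23745834-23746079, minus strand) and Shisa3 (chr5:67607633-67607881, plus strand), 246 and 249 bases upstream of the first base of the gene in GENCODE M21 are shown. They hold no capitals because no searched letters matched. Their 250-base windows were rich in G and C, at 68% for Kremen2 and 69.6% for Shisa3, against a median of 52.4% over all promoters.

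Kremen2: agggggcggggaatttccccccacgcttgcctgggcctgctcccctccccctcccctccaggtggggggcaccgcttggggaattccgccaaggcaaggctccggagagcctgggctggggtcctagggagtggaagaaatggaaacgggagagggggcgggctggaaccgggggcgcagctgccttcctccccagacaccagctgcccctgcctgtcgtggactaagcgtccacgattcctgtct

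Shisa3: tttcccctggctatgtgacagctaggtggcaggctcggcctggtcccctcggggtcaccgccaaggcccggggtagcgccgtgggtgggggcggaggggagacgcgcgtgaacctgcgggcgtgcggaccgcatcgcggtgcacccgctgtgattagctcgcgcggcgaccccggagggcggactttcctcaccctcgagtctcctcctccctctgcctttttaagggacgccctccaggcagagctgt

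In each group Sfrp2 had the highest level of the 10 genes by FPKM, at 909 ± 80.5 FPKM in the control vault, 719 ± 68.8 FPKM in the MCAGF8 vault and 427 ± 244 FPKM in the control base (mean ± SD, n = 3 here and below). It made up 66.9% to 73.0% of the summed level of the 10 genes in the control vault, 63.3% to 67.8% in the MCAGF8 vault and 33.0% to 63.8% in the base. In the control vault Sfrp1 and Dkk3 followed, at 105 ± 2.54 and 86.5 ± 4.96 FPKM, and the lowest level was that of Kremen2, at 3.07 ± 1.24 FPKM. The ranges of neighbours from Dkk2 (52.3 ± 5.49 FPKM) through Wif1, Kremen1, Shisa3 and Dkk1 to Frzb (19.8 ± 6.05 FPKM) overlapped each other in that order. In the MCAGF8 vault Dkk3 stood second, at 116 ± 18.7 FPKM, with a range that overlapped that of Sfrp1, and Kremen2, Shisa3 and Dkk1 were the lowest 3, with overlapping ranges. In the base Dkk3, Frzb, Shisa3, Kremen1, Dkk2 and Wif1 formed a run of overlapping neighbours between 48.8 and 19.5 FPKM on average.

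**Figure D2:**
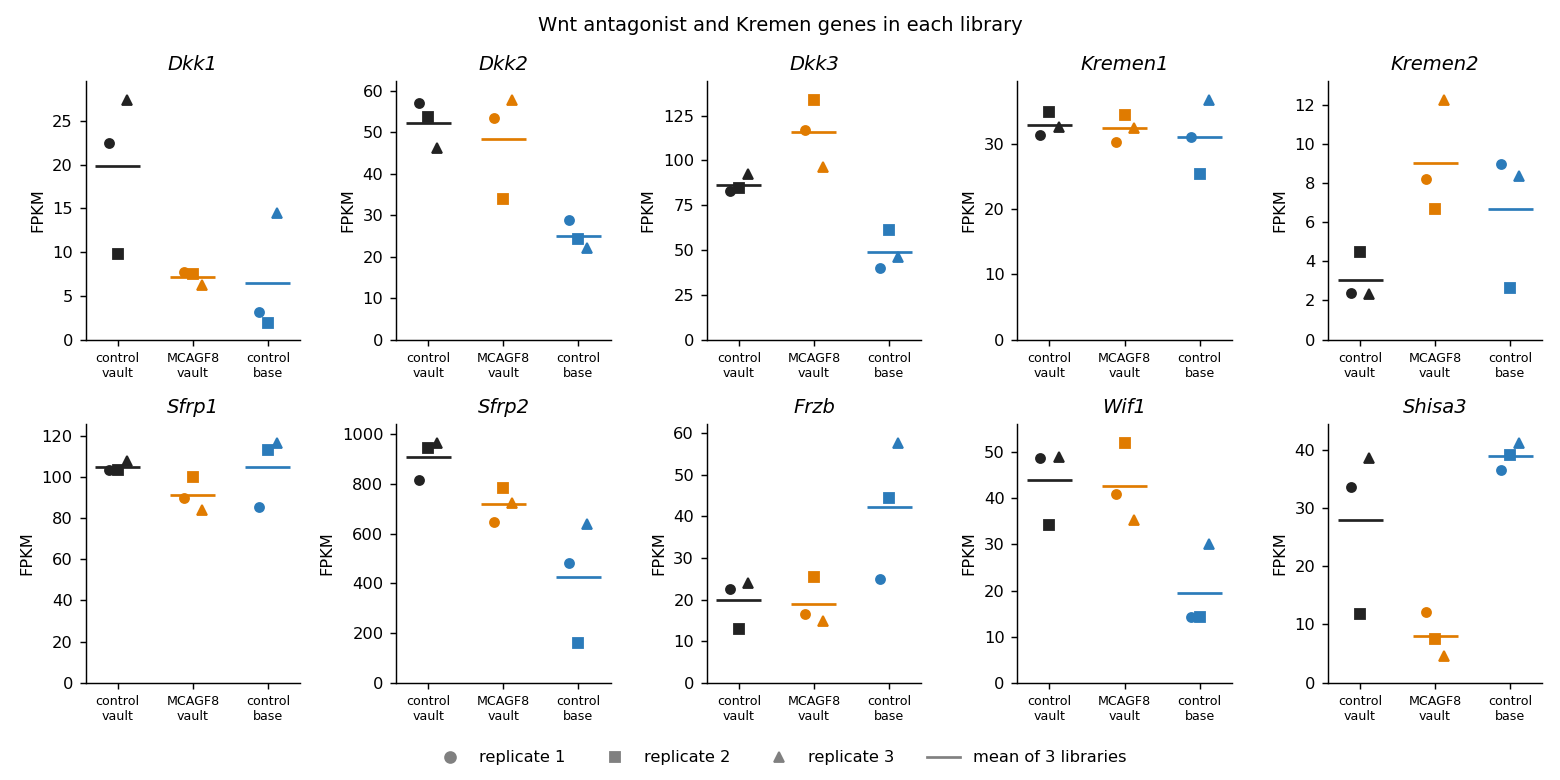
FPKM of the 10 genes (y axis, each panel with its own scale from 0) in the control vault, MCAGF8 vault and control base (x axis); symbols are replicates 1 to 3 and horizontal lines the means of 3 libraries. Kremen2 was 6.67 to 12.2 FPKM in the MCAGF8 vault and 2.32 to 4.50 FPKM in the control vault, and Shisa3 was 4.50 to 12.2 and 11.8 to 38.6 FPKM.

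The first comparison, MCAGF8 vault against control vault, asks what differs in the vault when the overlying ectoderm expresses the Fgf8 transgene. To be called, a gene needed a limma p under 0.05 that stayed under 0.1 after Benjamini-Hochberg adjustment over the 18714 genes tested. None of the 10 genes was called by limma, against 0.604% of all genes tested. Ordinary regression without limma's moderation called 0 of the 18714 genes, so it could call none of the 10. At an unadjusted p under 0.05, limma counted 2 of the 10, Kremen2 and Shisa3, and 1186 of all 18714 genes. The values of the 3 MCAGF8 and 3 control vault libraries did not overlap for 5 of the 10 genes, against 19.2% of all genes: Kremen2 and Dkk3 were above the control range, and Dkk1, Sfrp1 and Sfrp2 below it. The median log2 difference over the 10 genes was -0.10, beside -0.01 over all genes tested. With each library rescaled to the same sum, the small vault differences of Dkk2, Kremen1, Frzb and Wif1 turned from below to above 0. The other comparisons each share a vault group with it, and share the base libraries with each other, so the 3 are not independent.

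**Figure D3:**
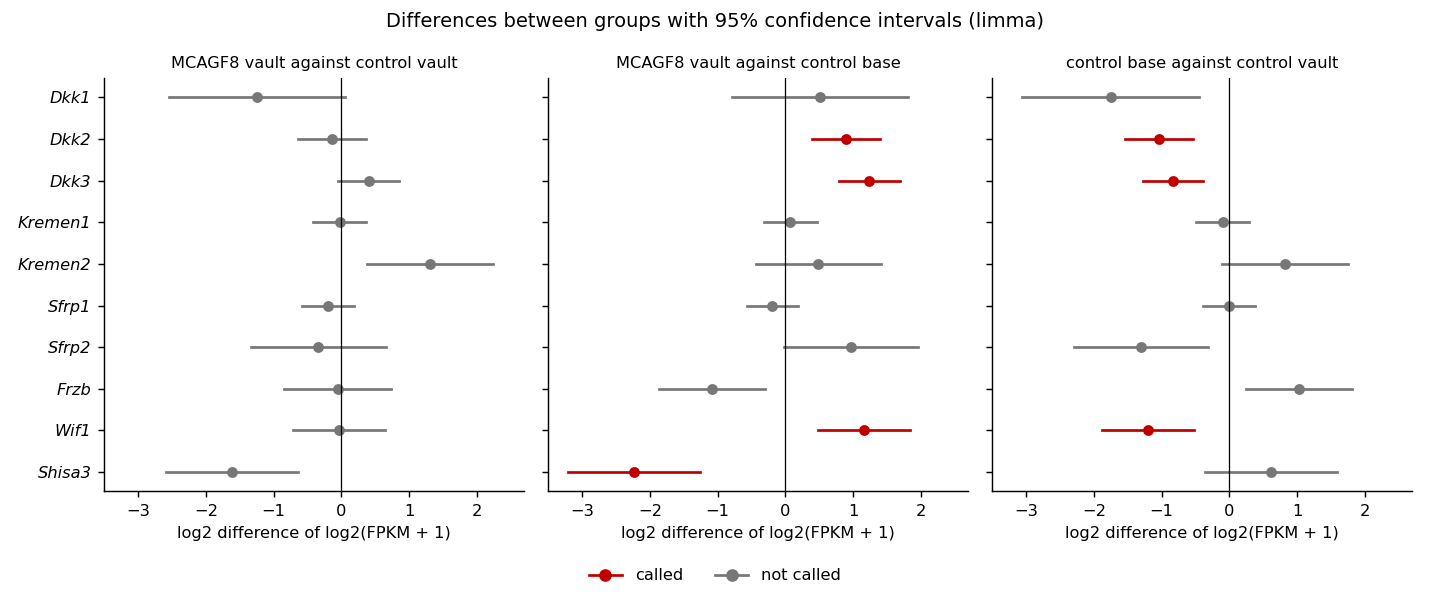
Difference of group means in log2(FPKM + 1) (x axis) of the 10 genes (y axis) in 3 comparisons, with limma's 95% confidence intervals as bars; red marks called genes. No gene was called in the vault comparison, 4 were called against the base in the MCAGF8 vault, and 3 between control base and control vault.

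The Dkk genes encode secreted antagonists. Dkk1 was 22.5, 9.76 and 27.4 FPKM in control vault replicates 1 to 3, 7.72, 7.48 and 6.25 FPKM in the MCAGF8 vault, and 3.21, 1.86 and 14.49 FPKM in the base. All MCAGF8 values were below all control vault values, but control vault replicate 2 lay closer to the MCAGF8 libraries than to its own group. Base replicates 1 and 2 were below every vault library, and base replicate 3 lay within the control vault range. The mean was 2.78-fold lower in the MCAGF8 vault than in control vaults. The log2 difference was -1.25 (SE 0.58, 95% interval -2.55 to 0.05), which did not pass the test (limma, adjusted p = 0.820). In the control vault, Dkk1 and the summed osteoblast genes ranked the libraries alike, with replicate 2 lowest in both, while in the MCAGF8 vault they did not. In the base, replicate 3 had the highest Dkk1 and the highest osteoblast sum, 1408 FPKM against 504 and 508 FPKM. The part of bone-forming cells in the Dkk1 difference was not tested.

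Dkk2 was 57.0, 53.7 and 46.3 FPKM in the control vault, 53.5, 34.0 and 57.8 FPKM in the MCAGF8 vault and 28.9, 24.2 and 22.1 FPKM in the base. The vault groups overlapped, and each base library was below each vault library. Between the vaults the log2 difference was -0.14 (95% interval -0.64 to 0.36, limma adjusted p = 0.978).

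Dkk3, a divergent member of the family that does not bind the Lrp co-receptors as Dkk1 does, was 82.9, 84.5 and 92.2 FPKM in the control vault, 117, 134 and 96.4 FPKM in the MCAGF8 vault and 39.8, 60.9 and 45.9 FPKM in the base. The 3 groups were fully separated, with the MCAGF8 vault highest and the base lowest. The vault means differed 1.34-fold, with a log2 difference of 0.40 (SE 0.20, 95% interval -0.04 to 0.85) that did not pass the test (limma, adjusted p = 0.869).

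The Kremen genes encode the transmembrane partners of Dkk1 and Dkk2. Kremen1 was level across the study: 31.4, 34.9 and 32.5 FPKM in the control vault, 30.3, 34.4 and 32.5 FPKM in the MCAGF8 vault, and 31.0, 25.3 and 36.7 FPKM in the base. Every pair of groups overlapped, and the vault difference was -0.02 log2 units (95% interval -0.42 to 0.37, limma adjusted p = 0.997).

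Kremen2 was 2.38, 4.50 and 2.32 FPKM in the control vault, 8.22, 6.67 and 12.2 FPKM in the MCAGF8 vault and 8.98, 2.65 and 8.34 FPKM in the base. The MCAGF8 libraries were all above the control vault, by 2.95-fold on the means, and base replicate 2 fell among the control vault values. The log2 difference between the vaults was 1.31 (SE 0.41, 95% interval 0.38 to 2.23), with an unadjusted p of 0.0105 and an adjusted p of 0.409 by limma. It was called in 1 of 17 alternatives, the fit without control base replicate 2, where limma's adjusted p was 0.0941 for the same difference of 1.31. Kremen2 made up 7.05%, 11.4% and 6.66% of the summed Kremen level in the control vault and 21.3%, 16.2% and 27.4% in the MCAGF8 vault, so this share separated the vault groups. In the base it was 22.4%, 9.48% and 18.5%.

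Within both vault groups Kremen2 ranked the libraries as the summed epidermal genes did: control vault replicate 2 and MCAGF8 replicate 3 were highest in both. In the base, replicate 2 was lowest in both, with an epidermal sum of 248 FPKM against 801 and 1124 FPKM, but replicates 1 and 3 ranked the other way. Base replicate 2 also had a higher epidermal sum than control vault replicate 2, at 138 FPKM, but lower Kremen2, 2.65 against 4.50 FPKM. In that pair the epidermal list went both ways. Epcam, Cldn6, Krt18 and Krt8 were among the genes higher in base replicate 2, with Epcam at 37.1 against 1.60 FPKM. Krt5, Krt14 and Krt15 were lower there, like Kremen2, with Krt5 at 17.8 against 29.2 FPKM. The part of epidermal cells in the Kremen2 values was not tested. By the mean absolute difference of centred log2(FPKM + 1) over the 9 libraries, genes among the nearest of 17056 to Kremen2 were Ankrd22 at 0.26 and Meis1, a homeodomain transcription factor, at 0.26. Meis1 was 8.31 to 18.4 FPKM in the control vault, 22 to 36.0 FPKM in the MCAGF8 vault and 23.6 to 34.0 FPKM in the base. An antisense gene, 9530082P21Rik, overlaps exons of Kremen2 on the other strand and was 1.86 to 4.33 FPKM over the 9 libraries. The strand setting used in quantification was not given in the sources used here.

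**Figure D4:**
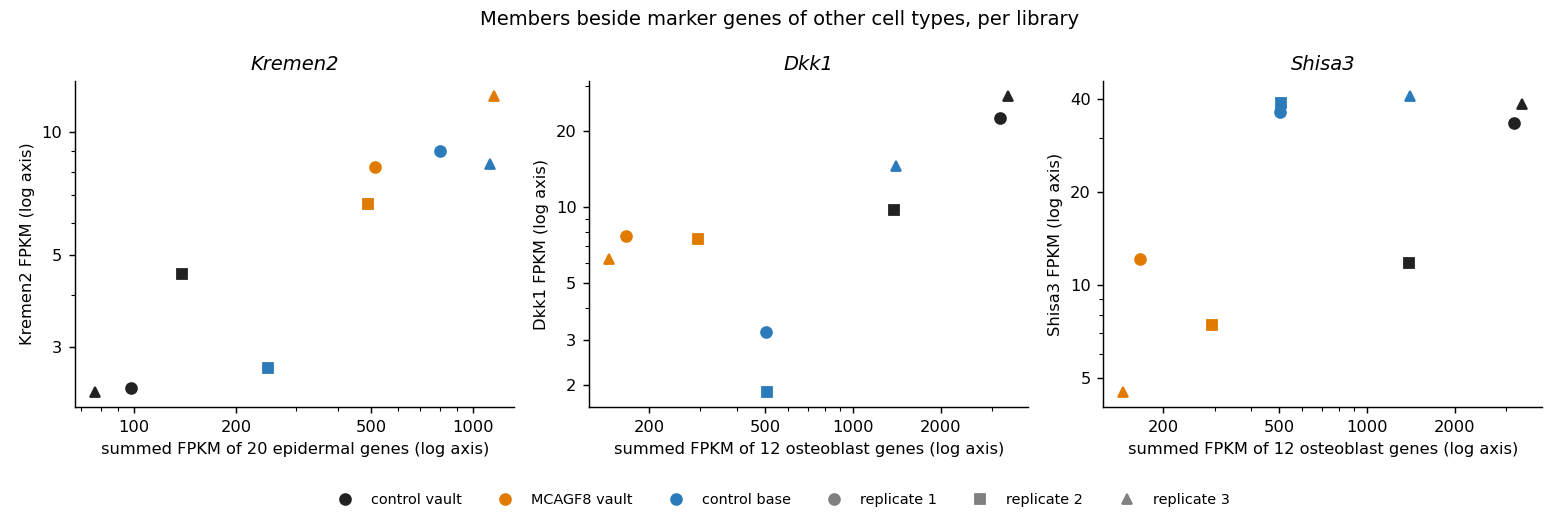
Kremen2, Dkk1 and Shisa3 FPKM (y axes, log) against the summed FPKM of 20 epidermal or 12 osteoblast genes (x axes, log) in the 9 libraries; colours are groups and symbols replicates. Kremen2 was highest, at 12.2 FPKM, in the library with the highest epidermal sum, 1156 FPKM, and Dkk1 was highest, at 27.4 FPKM, in the library with the highest osteoblast sum, 3408 FPKM.

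The nearest genes to Dkk1 by the same measure were Srpx2, at 0.32, and Calb2 and Tmem119, both at 0.36. Tmem119, a membrane protein of bone-forming cells, was 262, 192 and 333 FPKM in the control vault, 97.7, 128 and 82.6 FPKM in the MCAGF8 vault and 121, 48.6 and 182 FPKM in the base. Its control vault libraries were above all others.

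Sfrp1, Sfrp2, Frzb and Wif1 encode secreted proteins that bind Wnt ligands themselves. Sfrp1 was 104, 103 and 108 FPKM in the control vault and 89.9, 99.8 and 84.2 FPKM in the MCAGF8 vault, and 85.6, 113 and 116 FPKM in the base, which overlapped both. The MCAGF8 values were all below the control vault. The log2 difference was -0.20 (95% interval -0.59 to 0.18, limma adjusted p = 0.969).

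Sfrp2 was 816, 946 and 964 FPKM in the control vault, 648, 785 and 723 FPKM in the MCAGF8 vault and 482, 160 and 639 FPKM in the base. The 3 groups were separated in this order, and base replicate 2 was far below the rest. The vault difference was -0.34 log2 units (95% interval -1.33 to 0.65, limma adjusted p = 0.975). The summed level of 8 dermal genes was 1771, 941 and 1287 FPKM in base replicates 1 to 3, 2059 to 2559 FPKM in the control vault and 2752 to 2807 FPKM in the MCAGF8 vault. Base replicate 2 was thus lowest in both, but base replicates 1 and 3 ranked the other way. The dermal sum was higher in the MCAGF8 vault than in the control vault, while Sfrp2 was lower in the MCAGF8 vault. Of the 8 dermal genes, 4 had higher and 4 lower means on the log2 scale in the MCAGF8 vault. Crabp1, among the higher ones, had a mean of 403 FPKM in the control vault and 866 FPKM in the MCAGF8 vault. Gm26771, an antisense gene that overlaps exons of Sfrp2, was 0.929 to 1.92 FPKM.

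Frzb, also known as Sfrp3 and named for its Frizzled-like domain, was 22.7, 12.9 and 23.9 FPKM in the control vault, 16.5, 25.5 and 14.7 FPKM in the MCAGF8 vault and 25.0, 44.5 and 57.6 FPKM in the base. The vault groups overlapped, and the base was above the control vault in all 3 libraries. Between the vaults the log2 difference was -0.06 (95% interval -0.84 to 0.73, limma adjusted p = 0.995). Frzb made up 1.21% to 2.40% of the summed Sfrp1, Sfrp2 and Frzb level in the control vault, 1.79% to 2.80% in the MCAGF8 vault and 4.22% to 14.0% in the base. The top of that last range was base replicate 2, where Sfrp2 was lowest.

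Wif1 was 48.7, 34.2 and 48.9 FPKM in the control vault, 40.9, 51.9 and 35.2 FPKM in the MCAGF8 vault and 14.2, 14.2 and 30.1 FPKM in the base. The vault groups overlapped, and every base library was below every vault library. Between the vaults the log2 difference was -0.04 (95% interval -0.72 to 0.64, limma adjusted p = 0.998).

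**Figure D5:**
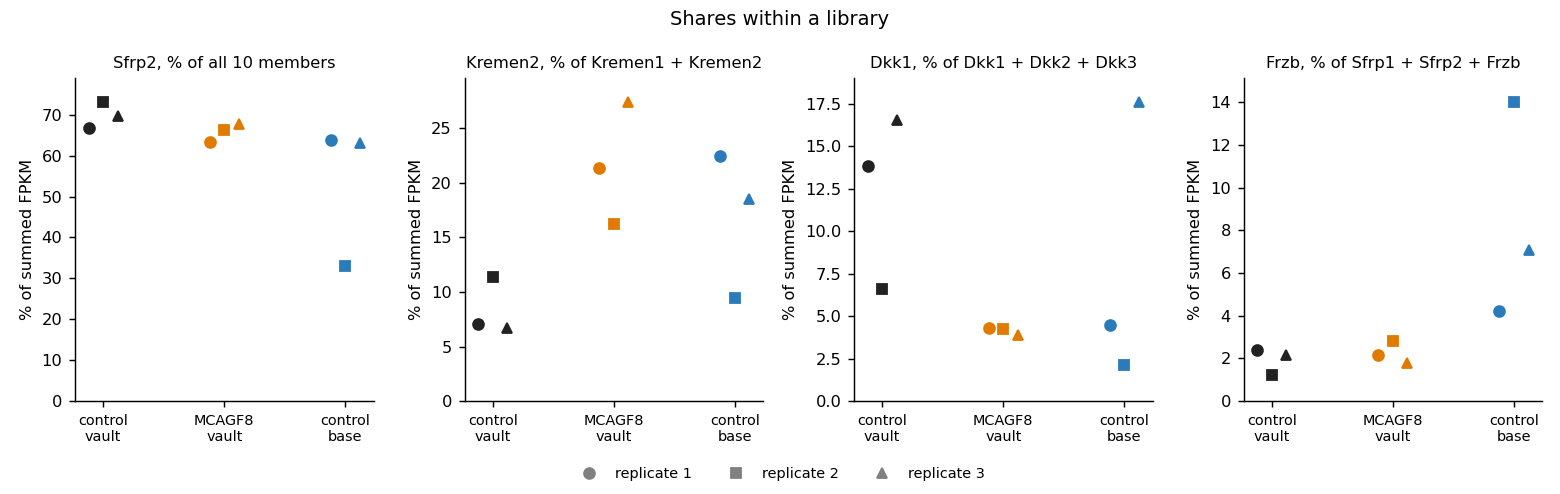
Share of 1 gene in a summed FPKM within each library (y axes, percent, from 0) for the 3 groups (x axes); symbols are replicates. Kremen2 took 16.2% to 27.4% of the Kremen level in the MCAGF8 vault and 6.66% to 11.4% in the control vault, and Dkk1 took 3.89% to 4.33% and 6.59% to 16.5% of the Dkk1, Dkk2 and Dkk3 level.

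Shisa3, which acts inside the cell, was 33.6, 11.8 and 38.6 FPKM in the control vault, 12.2, 7.44 and 4.50 FPKM in the MCAGF8 vault and 36.4, 39.0 and 41.1 FPKM in the base. MCAGF8 replicate 1 lay just above control vault replicate 2, so the vault groups overlapped, while the base libraries lay close together. The mean was 3.48-fold lower in the MCAGF8 vault than in control vaults. The log2 difference was -1.61 (SE 0.43, 95% interval -2.59 to -0.64), with an unadjusted p of 0.00437 and an adjusted p of 0.276 by limma. It was called in 1 of 17 alternatives: without control vault replicate 2 the difference was -2.12 and limma's adjusted p 0.0503.

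Control vault replicate 2 was also the lowest of its group in osteoblast genes, with 1387 FPKM, and the highest in muscle genes, with 6196 FPKM. In the base, Shisa3 stayed between 36.4 and 41.1 FPKM while the osteoblast sum ran from 504 to 1408 FPKM. Epcam, an adhesion protein of epithelia that was picked after its values were seen, was 12.5, 1.60 and 11.6 FPKM in the control vault, 6.70, 5.45 and 7.79 FPKM in the MCAGF8 vault and 41.3, 37.1 and 46.6 FPKM in the base. Like Shisa3, it was lowest within the control vault in replicate 2 and had its highest mean in the base. Shisa3 was lower still in MCAGF8 replicates 2 and 3, where Epcam was above its value in that library. Between the vaults, Epcam differed by -0.0041 log2 units (limma, adjusted p = 1). Within the control vault the epidermal list went both ways. Krt8, Krt18, Cldn6 and Esrp1 were also lowest in replicate 2, while Krt5 and more of the list were highest there. Of these, Krt8, Krt18 and Cldn6 were lower in the MCAGF8 vault without passing the test, and Esrp1 and Krt5 were higher. The part of these cell types in the Shisa3 values was not tested. By the likeness measure above, and chosen after Shisa3's values were seen, genes among the nearest were Fam92b at 0.36 and Hhip, a Hedgehog antagonist, at 0.36. On the other strand, exons of Atp8a1 overlap exons of Shisa3, and Atp8a1 was listed at 3.90 to 8.31 FPKM in the control vault, 3.32 to 6.27 FPKM in the MCAGF8 vault and 5.84 to 14.47 FPKM in the base.

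Against the control base, the MCAGF8 vault asks how far the altered vault resembles or departs from a part the study describes as cartilaginous. Base replicates 1 and 3 fell below the control vault in cartilage genes, as given above. Of the 10 genes 4 were called, against 8.39% of all genes. Dkk2, Dkk3 and Wif1 were higher in the MCAGF8 vault, where 2.98% of all genes were called higher, and Shisa3 was lower, where 5.41% were called lower. The groups did not overlap for 5 genes, the 4 called ones and Sfrp2, against 21.9% of all genes. The median log2 difference over the 10 genes was 0.50, beside -0.07 over all genes.

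Dkk3 was 2.37-fold higher in the MCAGF8 vault than in the base, a log2 difference of 1.24 (SE 0.20, 95% interval 0.79 to 1.69, limma adjusted p = 0.0109). It was called in 17 of 17 alternatives. Shisa3 was 4.83-fold lower, with a log2 difference of -2.23 (SE 0.43, 95% interval -3.20 to -1.25, limma adjusted p = 0.0199), and was called in 15 of 17. Without limma's moderation its adjusted p was 0.104.

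Dkk2 was 1.93-fold higher, with a log2 difference of 0.90 (SE 0.22, limma adjusted p = 0.0519), and Wif1 2.19-fold higher, with a log2 difference of 1.16 (SE 0.30, limma adjusted p = 0.0621). They were called in 10 and 9 of 17 alternatives, and neither was called with only the groups compared, with the replicate block or without moderation. Single libraries also mattered. Dkk2 was not called without base replicate 3 or MCAGF8 replicate 1 or 3, with limma adjusted p of 0.138, 0.211 and 0.174. Wif1 was not called without base replicate 1 or MCAGF8 replicate 1, 2 or 3, with limma adjusted p of 0.160, 0.182, 0.191 and 0.107.

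Among the other genes, Frzb was 2.24-fold lower in the MCAGF8 vault than in the base, with a log2 difference of -1.08 (95% interval -1.87 to -0.30) that did not pass the test (limma, adjusted p = 0.123). MCAGF8 replicate 2, at 25.5 FPKM, was above base replicate 1, at 25.0 FPKM, and without that base library the difference was -1.41 and passed (limma, adjusted p = 0.0502). Sfrp2 differed by 0.96 (limma, adjusted p = 0.268) with all libraries. It was called with all libraries after quantile normalization, which gives each library the same spread of values, and after rescaling to the same sum. With base replicate 2, the cartilage-rich library, as the only base library, the difference was 2.15 and passed (limma, adjusted p = 0.00783), in a fit that takes the lone library to vary like the other groups. In that fit Dkk3 and Wif1 were also called, and Shisa3 differed by -2.24 without passing (limma, adjusted p = 0.189). Dkk1, Kremen1, Kremen2 and Sfrp1 differed by 0.51, 0.07, 0.49 and -0.19 with overlapping groups and were not called.

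The control base against the control vault sets a part described as cartilaginous against a bone-forming part of the normal skull. In cartilage genes base replicates 1 and 3, at 1312 and 1820 FPKM, were below the control vault, at 2358 to 3399 FPKM. The epidermal sum was 248 to 1124 FPKM in the base and 76.8 to 138 FPKM in the control vault. Of the 10 genes 3 were called, against 3.06% of all genes, and the 3 (Dkk2, Dkk3 and Wif1) were lower in the base, where 1.21% of all genes were called lower. None of the 10 was called higher in the base by limma, against 1.85% of all genes. At an unadjusted p under 0.05, limma counted 6 of the 10 in either direction, and 2396 of all 18714 genes. The groups did not overlap for Dkk2, Dkk3, Wif1, Sfrp2 and Frzb, against 15.5% of all genes, and Frzb was the one of these 5 that was higher in the base.

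Dkk2 was 2.09-fold lower in the base, a log2 difference of -1.04 (SE 0.22, limma adjusted p = 0.0588). Dkk3 was 1.77-fold lower, at -0.83 (SE 0.20, limma adjusted p = 0.0845), and Wif1 2.25-fold lower, at -1.20 (SE 0.30, limma adjusted p = 0.0969). All 3 were close to the threshold: they were called in 7, 2 and 4 of 17 alternatives, and without control vault replicate 1, 2 or 3, or MCAGF8 replicate 1, none of the 10 genes was called by limma. Over the alternatives their log2 differences were -1.14 to -0.95 for Dkk2, -1.0 to -0.50 for Dkk3 and -1.54 to -1.03 for Wif1.

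Dkk1 was 3.05-fold lower in the base, with a log2 difference of -1.75 (95% interval -3.05 to -0.45, limma adjusted p = 0.205). The call turned on base replicate 3, without which the difference was -2.47 and passed (limma, adjusted p = 0.0399). Sfrp2 was 2.13-fold lower, at -1.30 (limma, adjusted p = 0.219), and without base replicate 2 the difference was -0.71. It was called with all libraries after quantile normalization and after rescaling to the same sum. Frzb was 2.14-fold higher, at 1.03 (limma, adjusted p = 0.222), and passed without base replicate 1 at 1.36 (limma, adjusted p = 0.0763). Kremen2 was 2.17-fold higher, at 0.82 (limma, adjusted p = 0.471). It passed without base replicate 2 at 1.29 (limma, adjusted p = 0.0620), and with base replicate 2 as the only base library it was -0.11, so its direction turned with that library. Shisa3 differed by 0.62 (95% interval -0.36 to 1.59), Kremen1 by -0.10 and Sfrp1 by -0.01, with overlapping groups.

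A further 16 genes that restrain Wnt signalling were set beside the 10, of which 15 passed the filter on low values. Between the vaults 1 was called, higher in the MCAGF8 vault: Apcdd1, a membrane protein that binds Wnt and Lrp, was 23.1, 24.7 and 25.3 FPKM in the control vault and 92.6, 84.7 and 84.4 FPKM in the MCAGF8 vault, a log2 difference of 1.80 (SE 0.31, limma adjusted p = 0.0723). The groups were far apart relative to their spread. Over all genes the share called was 0.604%. The median of these 15 genes was 0.33. Against the base, 2 were called higher in the MCAGF8 vault, beside 2.98% of all genes. They were Tpbg, a membrane protein that inhibits Wnt signalling, by 1.42 (limma, adjusted p = 0.0127), and Apcdd1 by 1.63 (limma, adjusted p = 0.0185). Between base and control vault 2 were called higher in the base, beside 1.85% of all genes. They were Sostdc1, a secreted antagonist, by 2.16 (limma, adjusted p = 0.0469) and Rnf43, an enzyme that removes Frizzled receptors, by 1.10 (limma, adjusted p = 0.0781).

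On the side of the signal that the 10 genes restrain, 15 of 19 Wnt ligands passed the filter, and 5 of them were called higher and 0 lower in the MCAGF8 vault against the control vault, against 0.604% of all genes, with a median of 0.57. The epidermal genes given above were higher in the same libraries, with a sum of 490 to 1156 against 76.8 to 138 FPKM, and their part in the ligand values was not tested. At an unadjusted p under 0.05, limma counted 8 of the 15 in either direction. Of 15 receptors and co-receptors, 1 was called higher and 0 lower, against 0.604% of all genes (3 at an unadjusted p under 0.05 by limma). Their median was 0.03. The targets of the Dkk proteins differed little: Lrp5 was 43.7, 34.7 and 49.3 FPKM in the control vault and 37.9, 54.9 and 32.5 FPKM in the MCAGF8 vault, a log2 difference of -0.05 (limma, adjusted p = 0.993), and Lrp6 differed by 0.18 (limma, adjusted p = 0.981). Both pairs of groups overlapped.

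Of 10 genes that Wnt/β-catenin signalling is known to induce, 1 was called higher and 0 lower between the vaults, against 0.604% of all genes. At an unadjusted p under 0.05, limma counted 7 in either direction, and the median was 0.59. The groups did not overlap for 5 genes higher and 2 lower in the MCAGF8 vault, against 19.2% of all genes in either direction. The 2 lower ones, named after their values were seen, were Tcf7, a transcription factor of the TCF/LEF family, with a log2 difference of -1.41 (limma, adjusted p = 0.187), and Ccnd1, a cyclin, with -0.65 (limma, adjusted p = 0.380). Axin2, a feedback inhibitor and common readout of the pathway, was 25.4, 19.4 and 20.4 FPKM in the control vault and 44.7, 47.5 and 34.5 FPKM in the MCAGF8 vault. Its groups did not overlap, and its log2 difference of 0.92 (SE 0.22) did not pass the test (limma, adjusted p = 0.181). Lef1, a transcription factor that acts with β-catenin, was 5.49, 5.31 and 5.73 FPKM in the control vault and 18.5, 22.2 and 17.1 FPKM in the MCAGF8 vault, with a log2 difference of 1.63 (limma, adjusted p = 0.238). Against the base, 5 of 15 ligands, 2 of 15 receptors and 5 of 10 targets were called higher in the MCAGF8 vault and 0 lower. Over all genes, 2.98% were called higher and 5.41% lower. Axin2 was among the targets called, with a log2 difference of 1.15 (limma, adjusted p = 0.0178). Between base and control vault, 2 of 15 ligands were called higher and 2 lower in the base, against 1.85% and 1.21% of all genes. Of 15 receptors and 10 targets, 0 were called by limma (3 of each at an unadjusted p under 0.05).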

How the data were processed

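Messenger RNA from 9 pools was sequenced single-end. The authors aligned reads with gSNAP and computed FPKM per gene with Cufflinks; the deposited FPKM values were used. Their versions, the genome build and the annotation were not given in the sources used. In the table of 43611 rows, 63 repeated rows were summed and 9 genes with a placeholder value in 17 cells were left out, leaving 43539 identifiers; 0 columns were unmapped. Groups came from the sample labels.

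Genes with a mean of at least 0.5 FPKM (18714) were tested on log2(FPKM + 1), a scale that understates changes of low genes, with limma 3.58.1 in R 4.3.3 (one model over 9 libraries, empirical Bayes with trend, two-sided). Genes were called at p under 0.05 and Benjamini-Hochberg adjusted p under 0.1. For single values, an exact permutation test of 3 against 3 libraries cannot give p below 0.1, so none was used. The fit was tested on simulated data. Intervals are 95% and cover the spread between pools. Members and lists were chosen with earlier results of these data known. All 10 members are named; from other lists, called antagonists (at most 4 per comparison), Axin2, Lef1, Lrp5, Lrp6, defining markers, and the 3 genes most like Kremen2 and Dkk1 are, except any not reported here. Alternatives changed the pseudocount (0.1), filter, scaling, samples fitted, replicate block, moderation and libraries; the fit with base replicate 2 as the only base library was added after seeing the data. Promoters are RefSeq (GRCm38.p6) and overlaps are from GENCODE M21.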

Additional observations from a re-analysis of the deposited data

How the results depend on the processing

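No read counts were used, so precision rests on 3 pools a group. Calls between the vaults numbered 0 in the fits of other scaling, filter, pseudocount, groups and moderation, and 0 to 1 when 1 library was left out. Against the base in the MCAGF8 vault, 4 calls became 2 with only the groups compared, 1 without moderation and 2 to 4 leaving out 1 library. Between base and control vault, 3 calls became 1 with no filter, 0 with only the groups compared, 0 without moderation and 0 to 3 leaving out 1 library. With libraries rescaled to the same sum the only call was Sfrp2, which was not among those 3. The cause was not tested. A fit with a replicate block gave 0, 2 and 0 calls in the vault, MCAGF8 against base and base against vault comparisons. To see whether same-numbered libraries of different groups deviate together, each gene's group mean was subtracted from its log2 values. These deviations, not the levels themselves, correlated at -0.549 to 0.37, so the numbers were not taken to pair the samples.

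Rescaling to the same sum moved the median of all genes from -0.01 to 0.13 between the vaults and from -0.07 to 0.11 against the base. Under it the vault differences of Dkk2, Kremen1, Frzb and Wif1 turned to 0.030, 0.14, 0.11 and 0.13, each near that median, and that of Sfrp1 in MCAGF8 against base to 0.021. Leaving out 1 library, vault differences ranged from -0.28 to 0.090 (Dkk2), -0.068 to 0.020 (Kremen1), -0.33 to 0.097 (Frzb) and -0.21 to 0.087 (Wif1). Likewise Kremen1 ranged from -0.059 to 0.20 in MCAGF8 against base and -0.23 to 0.035 in base against vault, and Sfrp1 from -0.092 to 0.13 in base against vault. With base replicate 2 as the only base library, Kremen2 was -0.11 and Sfrp1 0.11 in base against vault. Over the 3 comparisons, the log2 differences of the 10 genes under the alternatives kept direction and side of the threshold in 421 cases, lost a call in 55, gained one in 13 and changed sign in 21.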
